A study of Mus musculus with 2 samples.

Results

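The nuclei described here carried the deposited labels Endo (endothelial) or SMC-Peri (smooth muscle cells and pericytes) and lay outside the deposited subset of neurons. They numbered 138 of the 8171 labelled nuclei of the series, 97 male and 41 female. SMC-Peri was the label of 133 of them, 92 male and 41 female, and Endo of 5, all male. The table held 10 Endo and 137 SMC-Peri labels in all, of which 9 belonged to nuclei of the neuron subset and were left out. They were compared with the 274 nuclei labelled VLMC (vascular and leptomeningeal cells) and the 4028 labelled Micro-PVM (microglia and perivascular macrophages). The deposited table gave no score for how firmly a label was assigned.

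All nuclei came from Atf3-CreER:+/wt; SUN-SfGFP:+/wt mice more than 7 weeks old, killed 7 days after a closed-skull mild traumatic brain injury (mTBI). In these animals tamoxifen-activated Cre, driven from Atf3, switches on a GFP fused to the nuclear envelope protein Sun1, so that a nucleus stays green once its cell has expressed Atf3 while tamoxifen was present. Tamoxifen was given at 4 and 5 dpi, and GFP+ nuclei were sorted from the cortex ipsilateral to the impact. There were 2 libraries, 1 from a pool of 4 males and 1 from a pool of 4 females, and none from uninjured animals. Sex and library therefore cannot be told apart, and nothing here compares injured with uninjured cortex. A label field of the female library gave its sex as male, but its title and its Xist and Y-linked counts placed it as female.

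Endothelial cells line the vessels of the brain and form the blood-brain barrier with tight junctions and selective transporters. Mural cells wrap them, as smooth muscle on arteries and arterioles and as pericytes on capillaries, and both depend on a shared basement membrane and on signals such as PDGF and TGF-beta. VLMC are the fibroblast-like cells of the meninges and of the space around larger vessels.

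The labels were first checked against the defining transcripts, and the data went against them. Cldn5 (chr16:18776847-18778262, GRCm38, plus strand), the claudin of brain endothelial tight junctions, had 0 UMIs in all 138 nuclei. Rgs5 (chr1:169655501-169695813, plus strand), a G-protein regulator abundant in pericytes, also had 0. With a floor of 3 counts, a count of 0 allows up to 3.09% of male and 7.32% of female members to hold a UMI. This limit is an approximation and not an exact interval. Flt1 (chr5:147561604-147726011, minus strand), a VEGF receptor of endothelium, had 12 male UMIs, 10 of them in 1 nucleus, and 1 female UMI. Its level, as UMIs scaled to 1000000 UMIs of the summed nuclei (CPM), was 51.4 CPM male and 6.18 CPM female. Micro-PVM nuclei held 17.2 and 9.95 CPM of Flt1, and the VLMC nuclei 14.4 and 34.8 CPM. At least 1 Flt1 UMI was seen in 3.09% of male (95% exact binomial interval 0.642 to 8.77) and 2.44% of female members (0.0617 to 12.9). The Micro-PVM nuclei gave 1.72% and 2.4%, at median depths of 1298.5 and 3012.5 UMIs against 2415 and 3907 in the members. The Flt1 shares of the members could not be told from those of the Micro-PVM nuclei. Whether the Micro-PVM counts were free RNA was not tested. Every nucleus was also cut down at random to 1100 UMIs, leaving out 26 male and 1 female member and 583 and 28 Micro-PVM nuclei. The members left out were all of deposited cluster 11, described below. Among the nuclei kept, the Flt1 shares were 2.82% and 2.5% in the members and 1.45% and 1.04% in Micro-PVM nuclei. These intervals, and all floors below, cover counting error only.

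**Figure D1:**
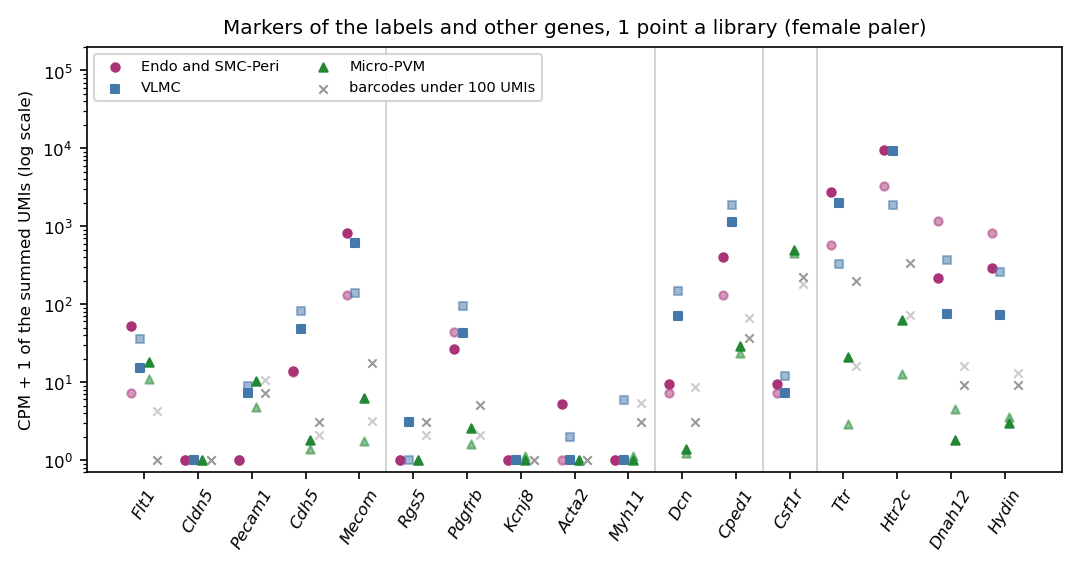
Level of single genes in the summed nuclei, as CPM plus 1 on a log axis, 1 point a library, with the female library paler. From left to right the panels hold endothelial genes, mural genes, VLMC genes, the microglial gene Csf1r and genes that led the clusters of the members. Cldn5 and Rgs5 lay at the bottom of the axis in the Endo and SMC-Peri nuclei, while Ttr stood at 2778 and 581 CPM.

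Other endothelial genes were as scarce. Of 25 endothelial identity genes, 9 had 0 UMIs in both libraries and 16 had at most 3 UMIs in total. Pecam1 and Emcn, both at the endothelial surface, were at 0. The VEGF receptor Kdr had 2 male UMIs and 1 female, the angiopoietin receptor Tek 3 and 0, and the junctional cadherin Cdh5 3 and 2. Summed over the list, the male members held 1123 CPM and the female members 241 CPM, beside 1399 and 1140 CPM in Micro-PVM nuclei. Most of the Micro-PVM sum was Fli1, an ETS factor of endothelium and of blood cells, at 1249 and 1045 CPM against 77.2 and 68 CPM in the members. Most of the male sum of the members was Mecom, a transcription factor of endothelium and other tissues, at 823 CPM male and 130 CPM female. Mecom was spread over 47 of the 97 male nuclei (48.5%) and 9 of the 41 female nuclei (22.0%), beside 0.769% and 0.257% of Micro-PVM nuclei. Thinned to 1100 UMIs, with the same nuclei left out as for Flt1, these shares were 42.3% and 15% in the members and 0.723% and 0.0433% in Micro-PVM nuclei.

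The mural genes gave the same picture. Of 16 pericyte genes 7 were at 0 in both libraries, among them the potassium channel subunits Kcnj8 and Abcc9, and of 16 smooth muscle genes 8 were, among them Tagln and Cnn1. Acta2, the actin of smooth muscle, had 1 UMI. Pdgfrb, the PDGF receptor that recruits pericytes, was present at 25.7 CPM from 6 male UMIs and 43.3 CPM from 7 female UMIs. At least 3 of the 16 pericyte genes were seen in 3 of the 138 nuclei (2.17%).

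A single nucleus carried an endothelial set of transcripts. It was labelled Endo, was male and held 1627 UMIs, of which 56 belonged to 14 of the 25 endothelial genes. They included 19 UMIs of Mecom, 10 of Flt1, 4 each of Ptprb, Ly6c1 and Fli1, 3 each of Adgrl4 and Cyyr1, and 2 each of Tek and Eng. Slco1a4 and Slc7a5, transporters of the blood-brain barrier, had 9 and 6 UMIs in it. Cldn5 and Pecam1 had none. The other 4 Endo nuclei held 1 or 2 of the 25 genes, between 3 and 6 UMIs, nearly all Mecom. They held instead 6 to 15 UMIs of Ttr, 11 to 35 of Htr2c and 42 to 113 of Trpm3, none of which the first nucleus had. Among all 138 nuclei no other reached 3 endothelial genes. With 5 Endo nuclei, all in 1 library, Endo was not tested against SMC-Peri.

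**Figure D2:**
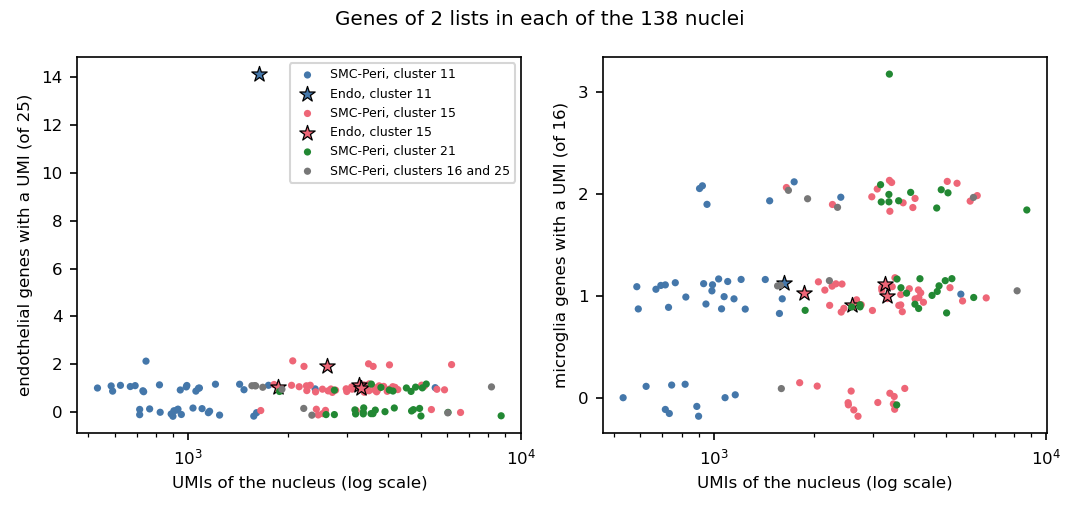
Each of the 138 nuclei by its UMIs (log axis) and by the number of endothelial identity genes (left, of 25) or microglia genes (right, of 16) with at least 1 UMI; stars are Endo nuclei, colours are deposited clusters, and points are spread slightly on the vertical axis to separate them. A single Endo nucleus of cluster 11 stood at 14 endothelial genes and every other nucleus at 2 or fewer.

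Nearly all of the nuclei fell into 3 of the deposited clusters. Cluster 15 held 60 of them (43.5%), cluster 11 held 40 (29.0%) and cluster 21 held 29 (21%), with 6 in cluster 25 and 3 in cluster 16. The libraries were made up differently. In the male library 53 of 97 nuclei (54.6%, 95% interval 44.2 to 64.8) lay in cluster 15 and 7 (7.22%, 2.95 to 14.3) in cluster 21. In the female library 7 of 41 (17.1%, 7.15 to 32.1) lay in cluster 15 and 22 (53.7%, 37.4 to 69.3) in cluster 21. These intervals cover the counting of nuclei within 1 library a sex, so the difference between the libraries was not tested. The VLMC nuclei lay in the same clusters, with 64.6% of them in cluster 11, 17.9% in cluster 15 and 7.3% in cluster 21.

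**Figure D3:**
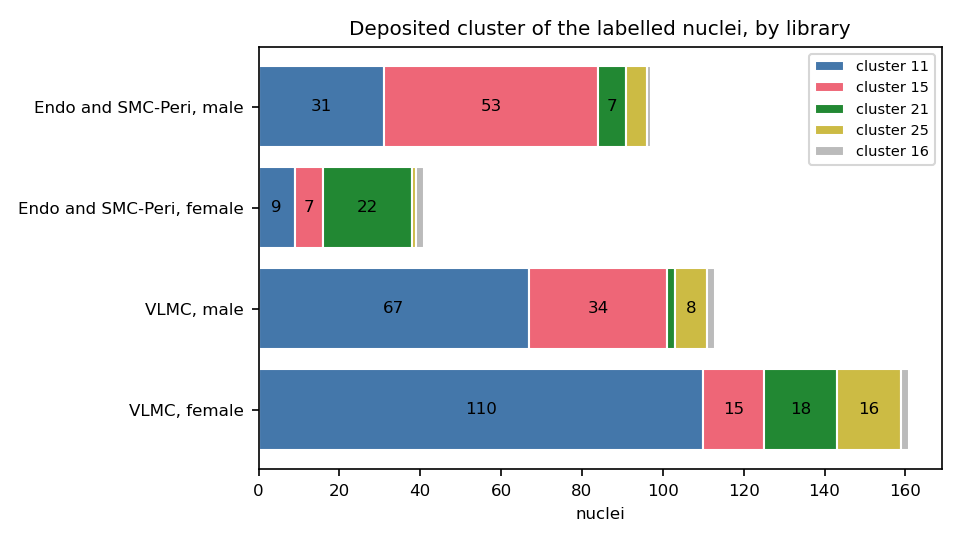
Number of Endo and SMC-Peri nuclei and of VLMC nuclei in each deposited cluster, by library (bars start at 0). Cluster 15 was the longest stretch of the male members with 53 nuclei and cluster 21 of the female members with 22, whereas cluster 11 led both VLMC bars with 67 and 110.

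The clusters differed in depth and mitochondrial content as well. Median UMIs per nucleus were 899 male and 1471 female in cluster 11, 3201 and 4269 in cluster 15, and 3547 and 4148 in cluster 21. The median mitochondrial share was 0.147% and 0.258% in cluster 15, 1.12% and 0.574% in cluster 11, and 5.81% and 4.8% in cluster 21. Of the 22 members over 6000 genes or 5% mitochondrial UMIs, 15 were in cluster 21. The part of depth and mitochondrial share in the differences between clusters was not tested.

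The genes that set the clusters apart are given as a description, because the clusters were built from these counts. For each cluster the 10 genes were named whose log2 ratio to the members of the other 2 clusters, with 10 CPM added, was highest in the library where it was lower.

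The members of cluster 15 were led by Htr2c, Ttr, Atp2b3, Col8a1, Tmem72, Vat1l, Slc4a5, Fras1, Strip2 and Prlr. Htr2c (chrX:146962513-147197277, plus strand), a serotonin receptor, stood at 12945 CPM male and 16385 CPM female, and all 60 nuclei held a UMI of it, against 4 of the 78 other members. Ttr, the thyroid hormone carrier transthyretin, stood at 3788 and 2917 CPM and was likewise seen in 60 of 60 nuclei, against 1 of 78. A male nucleus of the cluster held 1 to 60 Ttr UMIs with a median of 10, and a female nucleus 2 to 36 with a median of 10. The ranges of cluster 15 and of the other members did not overlap except at 1 UMI. Among Micro-PVM nuclei 2.43% (male) and 0.642% (female) held a Ttr UMI. Trpm3, a cation channel gene, reached 27113 and 24981 CPM in cluster 15, Enpp2, the enzyme autotaxin, 6452 and 8161 CPM, and Otx2, a homeobox factor of the brain, 263 and 465 CPM. Mecom, the gene that made up most of the endothelial sum above, belonged here too, with 1007 and 279 CPM, in 84.9% of male and 57.1% of female nuclei of the cluster. A set of 25 choroid plexus genes, among them Ttr, Htr2c, Trpm3 and Otx2, was gathered after these values were seen. Its values are therefore a description. It summed to 69929 and 66532 CPM in the members of cluster 15 and to 76962 and 70010 CPM in its VLMC nuclei. Of these genes 3 or more were seen in all 60 nuclei, in 4 of the 40 of cluster 11 and in 10 of the 29 of cluster 21. The median number was 18 in cluster 15, 1 in cluster 11 and 2 in cluster 21.

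The members of cluster 11 were led by Adam12, Slc7a11, Adap2, Aox3, Lrrk1, Apod, Cped1, Eya2, Slc13a3 and Il34. Adam12 (chr7:133883199-134232146, minus strand), a metalloprotease, stood at 2828 CPM male and 1976 CPM female and was seen in 30 of 40 nuclei, against 6 of the 98 other members. Slc7a11, the cystine-glutamate exchanger, stood at 6050 and 1073 CPM and was seen in 36 of 40, against 2 of 98. Adap2 was also high in Micro-PVM nuclei, at 2083 and 1429 CPM. Of the 13 Pdgfrb UMIs of the members 12 fell in this cluster, where its level was 179 and 395 CPM. Of 18 VLMC genes, 3 or more were seen in 37 of the 40 nuclei, in 1 of the 60 of cluster 15 and in 0 of the 29 of cluster 21. Among them Ptgds, prostaglandin D synthase, stood at 1217 and 339 CPM in cluster 11, and Slc6a13, a GABA transporter of leptomeningeal cells, at 752 and 452 CPM.

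The members of cluster 21 were led by Dnah12, Adamts20, Cfap46, Wdr49, Tmem212, Cdhr3, Ctnna3, Ccdc180, Dnah5 and Dnah10. Dnah12 (chr14:26693274-26891703, plus strand), a dynein heavy chain of the ciliary axoneme, stood at 2085 CPM male and 2003 CPM female. It was seen in all 29 nuclei, against 0 of the 109 other members and 0.118% and 0.385% of Micro-PVM nuclei. A male nucleus of the cluster held 3 to 13 Dnah12 UMIs with a median of 6, and a female nucleus 2 to 18 with a median of 8.5. Hydin, of the central pair of motile cilia, ranged from 2 to 15 UMIs in the male nuclei and from 1 to 12 in the female nuclei. A set of 30 axonemal and ciliary genes, of which 29 matched the files by symbol, was gathered after these values were seen, so its values are a description. Each of the 29 nuclei of cluster 21 held UMIs of 3 or more of them, with a median of 23 genes, and so did 59 of the 60 nuclei of cluster 15, with a median of 9, and none of the 40 nuclei of cluster 11. Spag16, an axonemal gene of the set, stood at 2794 and 2171 CPM in cluster 21 and at 1733 and 1893 CPM in cluster 15, but at 71.6 and 0 CPM in cluster 11.

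**Figure D4:**
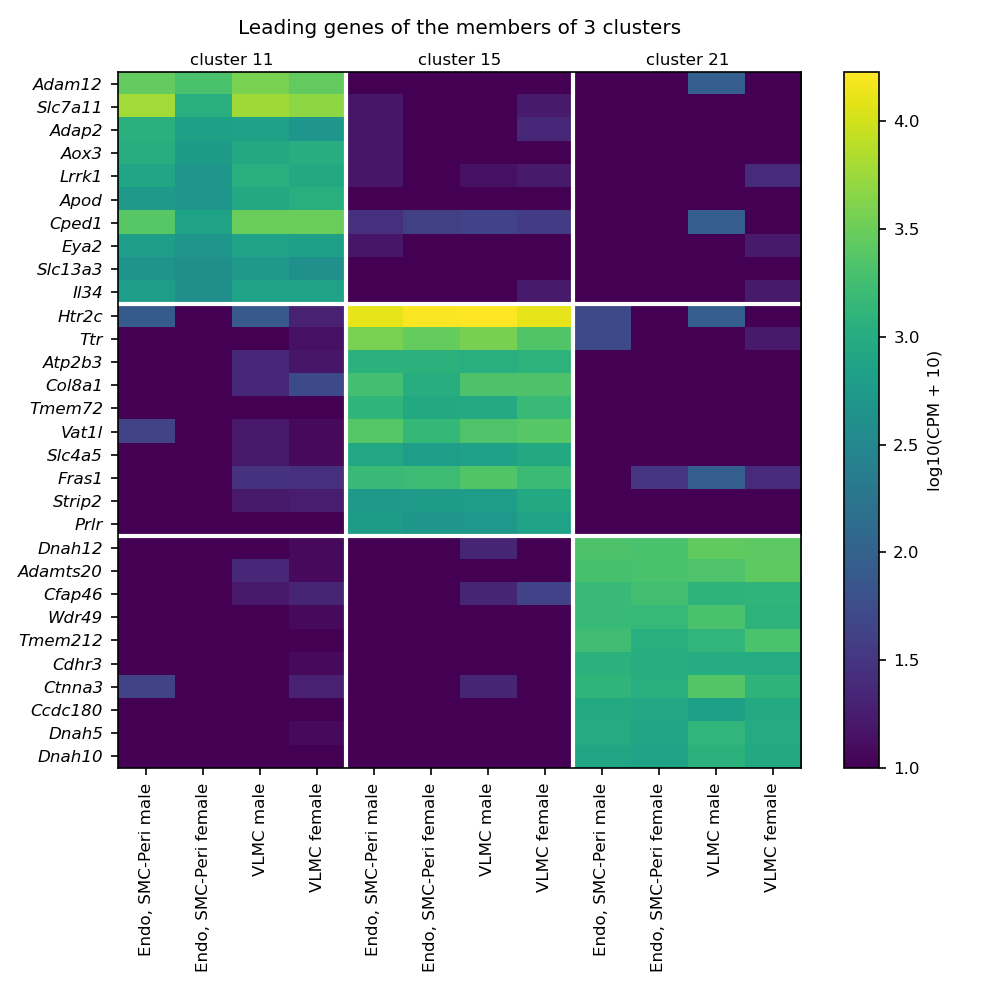
Level of the 10 leading genes of the members of clusters 11, 15 and 21 (rows), as log10 of CPM plus 10 (colour), in the Endo and SMC-Peri nuclei and the VLMC nuclei of each cluster and library (columns). In each block on the diagonal both labels are bright, from Adam12 at 2828 CPM in the male members of cluster 11 to Dnah10 at 745 CPM in the female members of cluster 21.

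Factors of the Rfx family bind the promoters of ciliary genes, and 3 of them were measured beside Foxj1, a regulator of motile cilia. Rfx2 stood at 626 CPM male and 231 CPM female in cluster 21, 164 and 186 CPM in cluster 15 and 0 in cluster 11. Rfx3 stood at 1168 and 996 CPM in cluster 21, 1247 and 1676 CPM in cluster 15, and 71.6 and 113 CPM in cluster 11. Rfx4 was at 167 and 210 CPM in cluster 21 and at 0 in clusters 11 and 15. Foxj1 had 5 UMIs in cluster 21, 1 male and 4 female. The letters GTTGCC, a part of the site that Rfx factors are known to bind, were searched on both strands of the RefSeq promoter windows (GRCm38.p6, from 250 bases before the start of a gene to 50 after it). They were found for 4 of the 10 leading genes of cluster 21 (Ccdc180, Cdhr3, Cfap46 and Dnah10), for 0 of the 7 leading genes with a window in cluster 11, for 0 of 7 in cluster 15, and for 3821 of 27025 genes in all (14.1%). The windows of 3 of these 4 genes are shown as examples of what leading genes of cluster 21 hold beside their start. Capitals mark the matched letters, GGCAAC being the same letters read on the other strand, and bases are counted from 1 at the 5′ end of the window.
Cfap46, chr7:139683766-139684065, minus strand: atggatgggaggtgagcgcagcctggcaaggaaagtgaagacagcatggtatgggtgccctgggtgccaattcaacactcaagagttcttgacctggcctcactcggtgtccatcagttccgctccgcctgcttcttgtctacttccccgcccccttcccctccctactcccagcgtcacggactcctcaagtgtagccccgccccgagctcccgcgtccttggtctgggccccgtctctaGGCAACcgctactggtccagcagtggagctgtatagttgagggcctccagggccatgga
Dnah10, chr5:124724835-124725134, plus strand: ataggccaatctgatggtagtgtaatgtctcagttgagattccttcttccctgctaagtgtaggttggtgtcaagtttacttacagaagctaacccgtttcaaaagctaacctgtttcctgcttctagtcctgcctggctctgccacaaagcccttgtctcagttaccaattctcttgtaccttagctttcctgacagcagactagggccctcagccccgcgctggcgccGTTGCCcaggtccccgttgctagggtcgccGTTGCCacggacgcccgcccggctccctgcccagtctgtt
Cdhr3, chr12:33092826-33093125, minus strand: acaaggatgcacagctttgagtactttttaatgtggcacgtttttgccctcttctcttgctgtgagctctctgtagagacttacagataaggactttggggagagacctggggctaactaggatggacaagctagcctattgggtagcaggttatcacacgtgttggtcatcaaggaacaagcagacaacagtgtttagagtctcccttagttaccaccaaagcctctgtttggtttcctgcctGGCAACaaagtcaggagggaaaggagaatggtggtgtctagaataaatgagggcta
The match began at base 242 in Cfap46, at bases 231 and 261 in Dnah10 and at base 245 in Cdhr3. The letters TAATCC, the core that Otx2 is known to bind, were in the windows of 1 of 7 leading genes of cluster 15 (Vat1l), 1 of 10 of cluster 21 (Ctnna3) and 8.14% of all genes. A match of letters is a description of these windows and shows no binding.

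The VLMC nuclei of a cluster resembled the members of the same cluster more than members of different clusters resembled each other. Across 2110 genes with a mean of at least 100 CPM, on the scale of log2 of CPM plus 10, the correlation of members with VLMC nuclei of the same cluster was 0.70 to 0.84 in cluster 11, 0.82 to 0.95 in cluster 15 and 0.56 to 0.90 in cluster 21. Between members of different clusters it was 0.00 to 0.18. Between the libraries, members of the same cluster correlated by 0.65 in cluster 11, 0.83 in cluster 15 and 0.77 in cluster 21. The clusters were built from these counts, so likeness within a cluster was largely set in advance and is a description. These are correlations across genes, which are not independent replicates, and sums of the same library share its sequencing and free RNA. For the leading genes, the VLMC value was within 2-fold of the value of the members in 17 of 20 gene and library pairs of cluster 11, 19 of 20 of cluster 15 and 20 of 20 of cluster 21.

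The test of the Endo and SMC-Peri sums against the VLMC sums, which asked how nuclei of these labels differ, called 0 of 9686 genes (0%) at an adjusted p under 0.05 with edgeR's quasi-likelihood test. Without adjustment 1098 genes had a p under 0.05, and DESeq2 called 121 of 5123. With the library as a replicate block edgeR called 85 genes (0.878%), 26 higher (0.268%) and 59 lower (0.609%) in the members. Within the clusters, in sums split by clusters 11, 15 and 21, it called 1 of 2089 (0.0479%). That gene was Tenm2, a teneurin of neuronal contacts, higher by 1.67 on the log2 scale (SE 0.36, adjusted p = 0.035). Tenm2 stood at 465 CPM male and 226 CPM female in the members of cluster 11 against 122 and 110 CPM in its VLMC nuclei, at 123 and 155 CPM against 30.4 and 27.7 CPM in cluster 15, and at 0 and 147 CPM against 0 and 77.8 CPM in cluster 21. Barcodes under 100 UMIs held more of it, 697 and 681 CPM, and the part of free RNA in this call was not tested. Labels and tests rest on the same counts, so these tests compare groups that were partly defined by the genes tested.

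Genes called with the block included several that marked a cluster. Among those called higher were Lrrc43 (log2 difference 2.89, SE 0.43, adjusted p = 0.027 by edgeR), Rfx4 (2.61), Cfap100 (2.37), Cdhr3 (2.23) and Spag17 (2.2). Lrrc43 stood at 68.6 CPM male and 260 CPM female in the members and at 6.16 and 42.8 CPM in the VLMC nuclei, so the lowest member value lay above the highest VLMC value. Cluster 21, which Cdhr3 marked, held 7.22% and 53.7% of the members but 2 of 113 and 18 of 161 VLMC nuclei.

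Among the genes called lower with the block were Dcn, the matrix proteoglycan decorin (log2 difference -3.67, SE 0.61, adjusted p = 0.032 by edgeR), Svep1 (-4.33), Tbx18 (-4.14) and Ranbp3l (-3.18). Dcn stood at 8.57 CPM male and 6.18 CPM female in the members, or 3 UMIs in all, and at 69.9 and 145 CPM in the VLMC nuclei. Tbx18, a transcription factor of mural cells and their progenitors, also had 3 UMIs, with 90.4 and 206 CPM in the VLMC nuclei. Epha3, an ephrin receptor, and Osmr, the oncostatin M receptor, had 0 UMIs in the members and 114 and 86 in the VLMC nuclei. Of 16 VLMC genes tested 6 were called lower with the block (Dcn, Slc13a3, Aldh1a2, Lama1, Ranbp3l and Cped1) and 0 without it, and the fitted difference was below 0 for all 16, with a median of -1.91. For 8 pericyte genes the median was -2.4 and 1 was called with the block, for 7 endothelial identity genes it was -0.59 and 0 were called, and for 20 basement membrane genes it was -0.59 with 1 called, Lama2.

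Against Micro-PVM nuclei 3363 of 9686 genes (34.7%) were called, 1858 higher (19.2%) and 1505 lower (15.5%) in the Endo and SMC-Peri nuclei. The median over all genes was -0.08. With the library block 3647 were called (37.7%, 20.6% higher and 17.1% lower), 3336 of them in common. The counts for the gene lists below are to be read against these shares. The Micro-PVM label rests on the same counts, so this test too compares groups partly defined by the genes tested. A gene could also pass the filter on low counts with 0 UMIs in Micro-PVM nuclei, as Trp73 did. Such a gene could hardly be called lower in the members.

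The 10 genes with the largest increase were Trp73, Gm867, Cdh3, Clic6, Il17rd, Sntn, Rsph14, Gm29538, Rp1 and Gm15689. Rp1 lost its call with DESeq2 (adjusted p = 0.073), within the limits of 6000 genes and 5% mitochondrial UMIs (0.054) and without the female members (0.38), and Rsph14 without the female members (0.12). Clic6, a chloride channel family member, was higher by 9.67 on the log2 scale (SE 1.02, adjusted p = 0.00037 by edgeR), at 729 CPM male and 154 CPM female against 0.802 and 0.249 CPM in Micro-PVM nuclei. The other 9 had 0 UMIs in the Micro-PVM nuclei and, against a floor of 3 counts over both libraries, were at least 124-fold to at least 364-fold higher, the last for Trp73, the p53 relative p73. Trp73 had 24 male and 17 female UMIs in the members, or 103 and 105 CPM. The 10 genes with the largest decrease included Cd84, Plxdc1, Lcp2, Epsti1, Nlrp1b, Cd86, Trim14, Cd300c2 and Adgre1, several of them known in leukocytes. All 10 had 0 UMIs in the members, and were at least 22.0-fold to at least 54.6-fold lower. Cd84, a surface receptor of leukocytes, stood at 361 and 431 CPM in Micro-PVM nuclei.

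The leading genes of the clusters stood higher in the members than in Micro-PVM nuclei, except Adap2, at 137 and 74.1 CPM against 2083 and 1429 CPM, and Lrrk1, at 111 and 55.6 CPM against 334 and 264 CPM. Ttr stood at 2778 CPM male and 581 CPM female in the members and at 20.1 and 1.87 CPM in Micro-PVM nuclei, a log2 difference of 7.21 (SE 1.39, adjusted p = 0.0052 by edgeR). Htr2c was at 9496 and 3262 CPM against 61 and 11.8 CPM, a difference of 7.32 (SE 1.16, adjusted p = 0.0022). Dnah12 was at 214 and 1180 CPM against 0.802 and 3.48 CPM, a difference of 7.94 (SE 1.31, adjusted p = 0.0026). The male members were the higher for Ttr and Htr2c and the female members for Dnah12, which were also the libraries where clusters 15 and 21, respectively, held most members. Without the male members the difference was 5.88 for Ttr and 6.47 for Htr2c, and without the female members it was 5.97 for Dnah12, and all 3 were still called. In barcodes with under 100 UMIs, which hold free RNA, Ttr stood at 197 and 15.2 CPM, Htr2c at 336 and 71.8 CPM and Dnah12 at 8.3 and 15.2 CPM, each below the members of the same library. Subtraction of that profile left 0 UMIs of Ttr and Htr2c in the Micro-PVM nuclei, which gave fitted differences of 14.44 and 16.4, and both were still called.

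Of the 25 endothelial identity genes 7 passed the filter on low counts, and 3 were called higher (Mecom, Cdh5 and Cyyr1) and 1 lower (Fli1) than in Micro-PVM nuclei, with a median of 1.06. Mecom was higher by 7.46 (SE 1.22, adjusted p = 0.0025 by edgeR). Cdh5 was higher by 4.31 (SE 0.96, adjusted p = 0.01), but on 3 male and 2 female UMIs, and without the male members its adjusted p was 0.078. Flt1 was not called (log2 difference 1.06, SE 0.75, adjusted p = 0.32). Fli1 was lower by 4.14, at the levels given above.

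Of 26 genes of barrier transport and junctions 22 were tested, with 9 called higher and 3 lower (median 0.67). Cgnl1, a paracingulin of tight junctions, was higher by 5.56 (SE 0.57, adjusted p = 0.00034 by edgeR), at 570 CPM male and 154 CPM female. It was present in clusters 11 (573 and 452 CPM) and 15 (662 and 403 CPM) and at 41.7 and 31.5 CPM in cluster 21. Slco1a4, an organic anion transporter, was higher by 6.81, and 9 of its UMIs in the members lay in the single Endo nucleus described above. Ocln, occludin, was higher by 4.67, with 111 and 92.7 CPM. Lrp8, a reelin receptor, was higher by 4.7. Insr, the insulin receptor, differed by -0.15 (adjusted p = 0.74). Tjp1, the scaffold ZO-1, differed by 0.11 (adjusted p = 0.83). Of 15 Wnt and brain endothelial regulators 11 were tested, with 6 called higher and 3 lower (median 3.11). Lef1, a transcription factor of Wnt signalling, was higher by 7.35, at 283 and 80.3 CPM, and Ppard, a nuclear receptor, was lower by 2.08 at 64.3 and 61.8 CPM against 223 and 247 CPM. Arterial genes gave 2 higher and 0 lower of 4 tested, and venous genes 5 higher of 5 tested. The 10 venous genes summed to 70.6 and 43.6 CPM in Micro-PVM nuclei, 926 and 278 CPM in the members and 1393 and 1285 CPM in the VLMC nuclei. With so little in Micro-PVM nuclei, the filter left few genes that could be called lower. The venous list included Flrt2, a membrane protein of cell guidance, at 604 and 167 CPM, and Nr2f2, the COUP-TFII receptor of venous identity, at 197 and 80.3 CPM. The VLMC nuclei held 972 and 948 CPM of Flrt2 and 259 and 192 CPM of Nr2f2.

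Of 16 pericyte genes 8 were tested, with 4 called higher and 1 lower (median 3.43). Slc6a20a, a proline transporter, was higher by 6.3 (SE 0.67, adjusted p = 0.00041 by edgeR), at 579 CPM male and 179 CPM female. Ebf1 was higher by 5.02, Pdgfrb by 4.92 and Vtn, vitronectin, by 3.58. The VLMC nuclei held more of each of these 4 genes in both libraries, for Pdgfrb 41.1 and 93.5 CPM, and none of the differences from the VLMC nuclei was called. Of 16 smooth muscle genes 6 were tested, with 4 called higher and 0 lower (median 5.97). Synpo2, an actin-binding protein, was higher by 5.91 (SE 0.99, adjusted p = 0.0028 by edgeR), at 42.9 and 284 CPM. Its level was 250 and 482 CPM in the members of cluster 21 and 0 in those of cluster 11. Mrvi1 was higher by 6.03 and stood at 322 and 113 CPM in cluster 11 and at 0 in clusters 15 and 21. Synpo2 and Mrvi1 thus lay in different clusters.

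**Figure D5:**
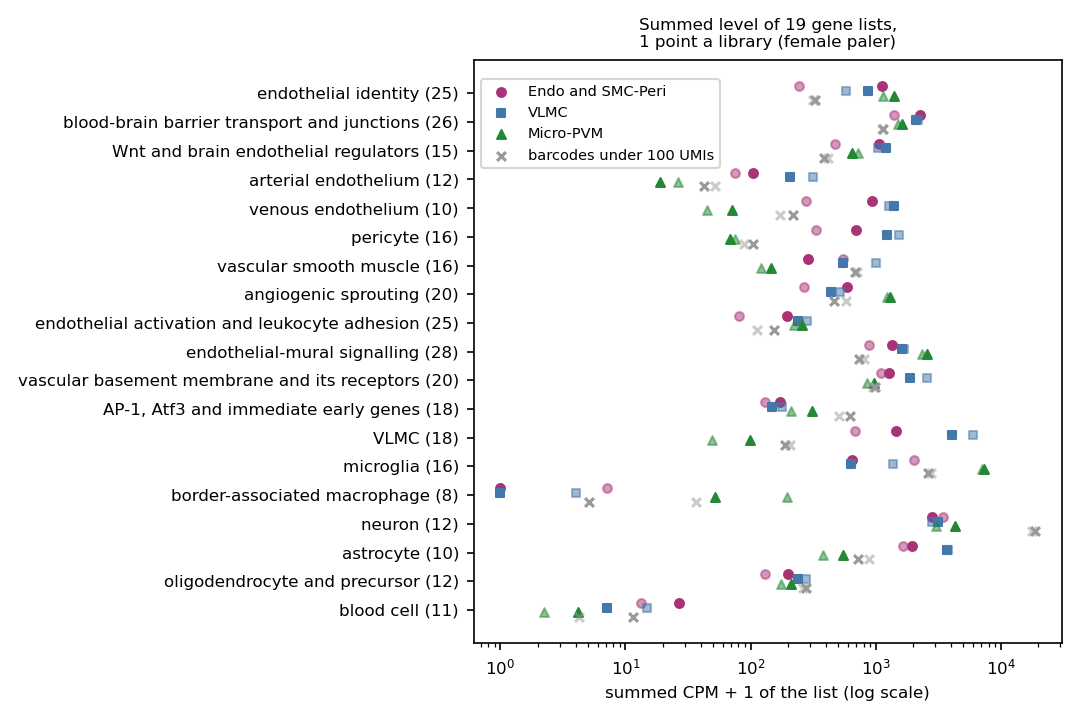
Summed level of each of 19 gene lists in the Endo and SMC-Peri, VLMC and Micro-PVM nuclei and in barcodes under 100 UMIs, as CPM plus 1 on a log axis, 1 point a library (female paler), with the number of genes in brackets. For the VLMC list the members stood at 1458 and 680 CPM, below the VLMC nuclei at 4083 and 6003 CPM and above the Micro-PVM nuclei at 97.4 and 48.5 CPM.

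Of 20 genes of the basement membrane and its receptors all were tested, with 11 called higher and 3 lower (median 2.8). Lamb1, a laminin chain, was higher by 6.31 (SE 0.55, adjusted p = 0.00019 by edgeR), at 184 CPM male and 130 CPM female. Lama2 was higher by 4.19 and Col4a1, a chain of collagen IV, by 2.95, at 42.9 and 55.6 CPM. Of 28 genes of endothelial-mural signalling 17 were tested, with 7 called higher and 5 lower (median 1.75). Tgfbr3, the betaglycan coreceptor, was higher by 4.74 and the ligand Tgfb2 by 4.13, while the receptors Tgfbr1 and Tgfbr2 were lower by 4.77 and 1.49. Tgfbr1 stood at 72.9 and 24.7 CPM against 1271 and 1167 CPM in Micro-PVM nuclei. Of 20 sprouting genes 8 were tested, with 2 called higher (Nid2 and Vegfa) and 3 lower (Pdgfb, Nrp1 and Nrp2). Vegfa, the main growth factor of endothelium, was higher by 2.94, at 129 and 74.1 CPM, beside 68.4 and 67.5 CPM in barcodes under 100 UMIs. Of 25 genes of endothelial activation and leukocyte adhesion 7 were tested, with 2 called higher and 2 lower (median -2.3). Vcam1, an adhesion molecule, was higher by 3.9 on 9 male and 2 female UMIs, and Icam1 was lower by 2.3 on 3 and 2 UMIs.

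Atf3 (chr1:191170296-191218039, minus strand), the stress-induced factor whose expression marks the sorted nuclei, had 2 UMIs in male members (8.57 CPM, exact Poisson interval 1.04 to 31.0) and 0 in the female members (interval 0 to 22.8 CPM). Micro-PVM nuclei held 26.5 and 35.9 CPM, and barcodes under 100 UMIs held 39.4 and 74 CPM. The log2 difference from Micro-PVM nuclei was -2.85 (SE 0.98, adjusted p = 0.055 by edgeR), and with the library block it was called lower. The GFP reporter had 0 male UMIs and 1 female UMI in the members, and 14.5 and 15.2 CPM in barcodes under 100 UMIs. Of 18 genes of the AP-1 and immediate early group 7 were tested, with 0 called higher and 2 lower (Jun and Klf6). Jun had 1 UMI in the members. Ddit3, a factor of the stress response, stood at 51.4 and 55.6 CPM and was not called (log2 difference 0.16, adjusted p = 0.81), with 201 and 124 CPM in barcodes under 100 UMIs.

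Among transcripts of other cells, the summed microglia and neuron genes stood below barcodes under 100 UMIs, and the summed astrocyte genes stood above them. The 16 microglia genes summed to 643 CPM male and 2033 CPM female in the members, against 7401 and 7040 CPM in Micro-PVM nuclei and 2601 and 2784 CPM in barcodes under 100 UMIs. Of the 16 genes 4 were at 0 in both libraries. In the test, 15 of the 16 were lower than in Micro-PVM nuclei. Those nuclei were labelled from the same counts, so this outcome was largely fixed by the label. At least 3 of the 16 genes were seen in 1 of the 138 nuclei. The 12 neuron genes summed to 2812 and 3479 CPM against 18861 and 17919 CPM in barcodes under 100 UMIs. Of 11 blood cell genes 9 were at 0. The 10 astrocyte genes summed to 1955 and 1668 CPM, against 547 and 377 CPM in Micro-PVM nuclei and 724 and 889 CPM in barcodes under 100 UMIs. The VLMC nuclei held more of them, 3709 and 3798 CPM. In cluster 11 they summed to 11707 and 4516 CPM in the members and to 10481 and 6726 CPM in the VLMC nuclei. Of these genes 9 were tested and 6 were called higher than in Micro-PVM nuclei. Slc1a3, a glutamate transporter of astrocytes, stood at 596 and 247 CPM and was not called against Micro-PVM (log2 difference 0.34, adjusted p = 0.56 by edgeR), with 4439 and 1185 CPM in cluster 11. In the VLMC nuclei Slc1a3 stood at 1338 and 1300 CPM, and in those of cluster 11 at 4067 and 2479 CPM. The part of these transcripts in the results was not tested.

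Male and female members were compared by their values alone, since each sex was 1 library. Of 3948 genes with at least 20 UMIs, 900 were more than 2-fold higher in the male and 401 in the female members. The 5 largest ratios towards the male were those of the Y-linked genes Uty and Ddx3y and of Syt17, Pdha1 and Slc29a4. Uty and Ddx3y had 58 and 22 male UMIs and 0 female UMIs, which made them at least 13.4-fold and at least 5.09-fold higher against a floor of 3 counts in the female library. Syt17, a synaptotagmin, had 24 male UMIs and 0 female, and Pdha1, of the pyruvate dehydrogenase complex, 21 and 0. In the VLMC nuclei, Syt17 had 27 and 19 UMIs and Pdha1 had 14 and 30. The 5 largest ratios towards the female were those of Xist, Col6a3, Lrrc71, Met and Prune2. Col6a3, a collagen VI chain, had 1 male and 25 female UMIs, and all 25 were in the 9 female nuclei of cluster 11. Lrrc71 had 1 and 24 UMIs, with all 24 in cluster 21. The make-up of the clusters differed between the libraries, as given above, and its part in these ratios was not tested. Thinned to 1100 UMIs, 73.2% of male and 15% of female members held a Ttr UMI, and 8.45% and 47.5% a Dnah12 UMI. Without thinning the shares were 55.7% and 17.1% for Ttr and 7.22% and 53.7% for Dnah12. The 26 male and 1 female member left out by thinning were all of cluster 11, where neither gene had a UMI. Shares with and without thinning thus cover different members and do not isolate depth.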

How the data were processed

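The authors sorted GFP+ nuclei, made 10X Genomics 3′ v3 libraries and counted UMIs per gene and barcode with Cell Ranger against a GRCm38 pre-mRNA reference with the reporter added. They deposited raw counts for called and for all barcodes, without normalization. The headers name 7.0.1 (male) and 7.0.0 (female) for called barcodes and 4 for all barcodes, and the submitters' processing notes name 3.1.0. The deposited table, made by the authors in Seurat, gives each nucleus its UMI and gene counts, percent of mitochondrial UMIs, cluster and label. A further deposited matrix of depth-corrected values, a score, was not used.

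Counts were summed per library for 97 and 41 Endo and SMC-Peri nuclei (233257 and 161842 UMIs, floors of 12.9 and 18.5 CPM), 113 and 161 VLMC nuclei (486708 and 1004991 UMIs) and 1690 and 2338 Micro-PVM nuclei (2493744 and 8042263 UMIs). The 6 sums were fitted in R 4.3.3 with edgeR 4.0.16 (TMM, filterByExpr, quasi-likelihood test, Benjamini-Hochberg adjustment over all genes, threshold 0.05). The common dispersion was 0.0748. Each sum is a pool of nuclei of 4 animals, so p-values measure the spread between these 2 libraries. Sums of a library come from the same animals, which pairs them, and their deviations from the class means correlated by 0.304, 0.18 and 0.262. Alternatives were a library block, DESeq2 1.42.0, other scalings and filters, subtraction of the profile of barcodes under 100 UMIs, nuclei left out and each library left out. The members and gene lists were chosen with earlier results of these data known. The axonemal and ciliary genes and the choroid plexus genes were chosen after seeing their values. Genes named were Flt1, Cldn5, Rgs5, Atf3 and the reporter, members of each list with high levels, the 10 largest called changes in each direction and the 5 largest male to female ratios. Other genes, named in the label check and as leading genes of clusters, were chosen after their values were seen. Shares have Clopper-Pearson intervals. Nuclei were also thinned to 1100 UMIs, leaving out 26 male and 1 female member, all of cluster 11. No doublets were removed: Scrublet marked 37 of the labelled nuclei (0.453%, too few to have worked), 1 of them a member. The labelled libraries shared 1 barcode, and no member was affected. The scripts were tested on simulated data. Results for a few genes are not reported here. Python 3.11.15, numpy 2.4.6, scipy 1.17.1, pandas 2.3.3, scanpy 1.11.5 and matplotlib 3.10.9 were used.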

Additional observations from a re-analysis of the deposited data

Results flagged for a closer look

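A further 44 nuclei of clusters 11, 15 and 21 had neuron labels but lay outside the deposited neuron subset, and no comparison used them. In cluster 15 they held Ttr at 3544 CPM in the male library (21 nuclei) and 1375 CPM in the female library (2 nuclei), against 197 and 15.2 CPM in barcodes under 100 UMIs and 11.3 and 0.435 CPM in the neuron subset. In cluster 21 they held Dnah12 at 1746 CPM (9 male nuclei) and 1877 CPM (9 female nuclei), against 8.3 and 15.2 CPM in barcodes under 100 UMIs and 2.29 and 2.52 CPM in the neuron subset. These values stand above the background of free RNA in both libraries and were not tested.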

How the results depend on the processing

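Against VLMC, the 0 calls became 85 with the replicate block, 121 with DESeq2, 349 of 20988 without a filter on low counts and 1 within clusters 11, 15 and 21, and were 0 under every other setting run, leaving out either library of the members included. The cause of these differences was not tested. Against Micro-PVM, 3363 calls became 1634 of 3959 tested without nuclei holding 2 or more UMIs of microglia genes, which removed 44 male and 34 female members. Without 1 library of the members they ranged from 2486 to 2841, and under the other settings from 2969 (without cluster 21) to 4109 (no filter). With totals alone the median over all genes moved from -0.08 to 0.10, and 62.3% of calls were higher in place of 55.2%. Against VLMC, 4 uncalled differences changed sign, those of Ttr and Htr2c without the male members, Htr2c (-0.35) without nuclei with microglia UMIs, and Dnah12 without the female members. Leaving out either library of the members or of all classes, they ranged from -0.83 to 1.21 for Ttr (0.57 with both), from -0.61 to 0.81 for Htr2c (0.24 with both) and from -0.25 to 2.42 for Dnah12 (1.7 with both). Rsph14 and Rp1 lost their calls against Micro-PVM without the female members (adjusted p = 0.12 and 0.38), and Rp1 also with DESeq2 (0.073) and within the limits of 6000 genes and 5% mitochondrial UMIs (0.054). Without 1 library of the members, differences from Micro-PVM ranged from 5.88 to 7.94 for Ttr, 6.47 to 7.82 for Htr2c, 5.97 to 8.62 for Dnah12, 5.76 to 8.24 for Mecom and 8.29 to 10.34 for Clic6. With ambient subtraction they were 14.44, 16.4, 9.91, 8.85 and 12.54. Where that subtraction left 0 UMIs in Micro-PVM nuclei (Ttr, Htr2c and Clic6), the fitted size depends on the prior count. Endo alone could not be fitted, with 0 female nuclei. The share of members, 1.7% on average over the libraries, was 2.42% male and 0.984% female, and 2.2% and 0.706% within the limits of 6000 genes and 5% mitochondrial UMIs. Sums of 41 nuclei limit the female library: a gene under 18.5 CPM there may not be seen at all.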
